A study of Mus musculus with 24 samples.

Results

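The calmodulin-dependent kinases and phosphatase subunits described here are 9 genes, chosen by their symbols: the CaMKII subunits Camk2a, Camk2b, Camk2d and Camk2g, the nuclear kinase gene Camk4, the CaMKII inhibitor gene Camk2n1, and the calcineurin subunits Ppp3ca, Ppp3cb and Ppp3r1. Each was found once, written in capitals (CAMK2A, CAMK2B, CAMK2D, CAMK2G, CAMK4, CAMK2N1, PPP3CA, PPP3CB and PPP3R1), among the 51733 genes of the count table, and all 9 passed the filter on low counts, which left 15238 genes in the immunoprecipitates (IPs), 17232 in the inputs and 17453 over both. The libraries come from 12 male C57BL/6 mice aged 2 to 3 months, 3 in each of 4 groups. In the order used here, the groups are eIF2α cKI CaMKIIα mice 1 h after fear conditioning, naive mice of that genotype, control mice 1 h after fear conditioning, and naive control mice. The cKI mice were bred from the eIF2αA/A;fTg+ line, in which both eIF2α alleles carry the A mutation that prevents phosphorylation at the regulatory serine and fTg is a floxed transgene, and their Cre is driven by the CaMKIIα promoter. The control titles also name CaMKIIα-Cre, so the Cre driver is shared by all 4 groups, while the labels do not say which eIF2α alleles and transgene these control mice carry. The labels describe a weak and a strong conditioning protocol and do not say which one these mice received.

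Both hippocampi of a mouse were pooled and lysed, an anti-HA antibody pulled tagged ribosomes from the lysate (the IP), and the rest of the lysate gave the input, so each mouse has 1 IP and 1 input library. In RiboTag mice Cre switches on an HA-tagged copy of the ribosomal protein Rpl22, so that the IP holds ribosome-bound RNA of Cre-expressing cells. Since the promoter of the member Camk2a drives the Cre, the cells sampled by the IP are chosen by activity of a Camk2a promoter. In such bulk libraries, fewer cells of a type and less RNA per cell cannot be told apart.

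Calcium entering a neuron through NMDA receptors binds calmodulin, and calcium-loaded calmodulin activates both arms of this system. CaMKII is a large holoenzyme of α, β, γ and δ subunits that phosphorylates receptors and scaffolds at the synapse and is required for long-term potentiation in the hippocampus. CaMKIV acts mainly in the nucleus, where it phosphorylates CREB, and the small protein encoded by Camk2n1 binds active CaMKII and blocks it. Calcineurin is a heterodimer of a catalytic A subunit (Ppp3ca or Ppp3cb in brain) and the calcium-binding B subunit Ppp3r1. It removes phosphate from synaptic proteins and from NFAT and CRTC transcription regulators, and is required for long-term depression.

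The 4 members whose promoter sequence was matched and may be shown include the most strongly IP-enriched regulatory subunit (Ppp3r1), 2 further enriched subunits (Camk2b and Ppp3cb) and the depleted CaMKII subunit (Camk2d). Each line gives the 200 bases before the annotated start, 5′ to 3′ on the gene's strand, from RefSeq (GRCm38.p6). Capitals mark the GC box (GGGCGG) and the CRE half-site (TGACG) on either strand, with overlapping matches run together.
Camk2b, chr11:6065749-6065948, minus strand: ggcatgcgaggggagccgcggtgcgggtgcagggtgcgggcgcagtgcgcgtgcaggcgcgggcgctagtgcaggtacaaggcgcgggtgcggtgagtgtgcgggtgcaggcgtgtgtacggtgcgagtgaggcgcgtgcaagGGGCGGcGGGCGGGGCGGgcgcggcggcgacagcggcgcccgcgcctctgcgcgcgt
Camk2d, chr3:126596751-126596950, plus strand: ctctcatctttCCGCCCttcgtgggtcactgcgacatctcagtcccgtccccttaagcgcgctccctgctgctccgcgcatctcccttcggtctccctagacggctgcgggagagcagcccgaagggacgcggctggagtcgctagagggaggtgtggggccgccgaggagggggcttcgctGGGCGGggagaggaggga
Ppp3cb, chr14:20546574-20546773, minus strand: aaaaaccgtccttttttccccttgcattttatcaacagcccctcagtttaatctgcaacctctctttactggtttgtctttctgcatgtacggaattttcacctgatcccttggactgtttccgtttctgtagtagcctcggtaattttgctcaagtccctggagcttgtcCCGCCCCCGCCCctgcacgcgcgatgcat
Ppp3r1, chr11:17159098-17159297, plus strand: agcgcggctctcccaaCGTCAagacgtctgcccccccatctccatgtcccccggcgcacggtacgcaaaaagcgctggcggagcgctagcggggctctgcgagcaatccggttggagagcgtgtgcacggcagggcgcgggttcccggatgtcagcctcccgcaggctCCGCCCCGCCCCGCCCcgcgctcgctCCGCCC
All 4 windows hold the GC box, 4 times in Ppp3r1, 3 times in Camk2b and 2 times each in Camk2d and Ppp3cb, and 31.0% of the 32851 promoter windows of this length in the table hold it. The CRE half-site is present once, in Ppp3r1, and in 15.7% of all windows. The E-box CANNTG occurs once, in Ppp3cb (58.2% of all windows), and TATAAA in none of the 4 (9.96% of all windows). The Camk2d window, of the depleted gene, holds the same GC box as the 3 of the enriched genes.

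The libraries held 30587694 to 43530930 counts in the IPs and 28810676 to 37732528 in the inputs. Markers of excitatory neurons were enriched in the IPs: all 8 excitatory markers were higher in IPs than in inputs by edgeR, and all 10 astrocyte, 10 oligodendrocyte, 6 oligodendrocyte precursor, 10 microglia and 12 vessel markers and 11 of 12 inhibitory neuron markers were lower. The astrocyte gene Gfap averaged 47.4 ± 9.23 CPM in IPs and 463 ± 35.8 CPM in inputs, and the inhibitory neuron gene Gad1 104 ± 22.7 and 296 ± 19.4 CPM (SD, n = 12 each). The myelin gene Mbp averaged 166 ± 31.5 and 1791 ± 341 CPM, the excitatory neuron gene Slc17a7 1247 ± 67.4 and 821 ± 38.7 CPM, the granule cell gene Prox1 121 ± 76.3 and 134 ± 11.5 CPM, and Rpl22, the tagged gene, was 2.13 higher in IPs on the log2 scale. Eif2s1, which encodes eIF2α, averaged 52.8 ± 1.84 CPM in cKI and 45.4 ± 2.49 CPM in control IPs, and 38.6 ± 1.96 CPM in cKI and 32.2 ± 1.25 CPM in control inputs (SD, n = 6 each). Gene counts do not tell its alleles apart and so do not check the genotype. The median absolute log2 deviation of a library from the mean of the other 2 of its group was largest, within their fractions, for 2 libraries. They were IP cKI naive replicate 2 (0.22) and input control naive replicate 2 (0.20), and values without them are given where they move a result. The next largest were IP cKI 1 h replicate 2 (0.19) and input control naive replicate 3 (0.13).

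The 9 members differed in how far their transcripts were enriched in the IPs, and the calcineurin subunits Ppp3ca and Ppp3r1 were enriched the most. Over the mean of the 4 groups, edgeR's quasi-likelihood test with Benjamini-Hochberg adjustment called 7 of the 9 members higher in IPs than in inputs, 1 (Camk2d) lower and 1 (Camk2n1) neither. The same test called 85.9% of all genes tested, 42.8% higher and 43.1% lower. The median log2 fold change was 0.89 over the members and -0.01 over all genes tested. The values below are in CPM (counts scaled to a common library size), which is not divided by transcript length, so levels are compared between libraries and not between genes. Only the differences between IP and input are ordered over the members. The share of all genes whose IPs and inputs do not overlap is not given here, so such separation is described for each member only.

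**Figure D1:**
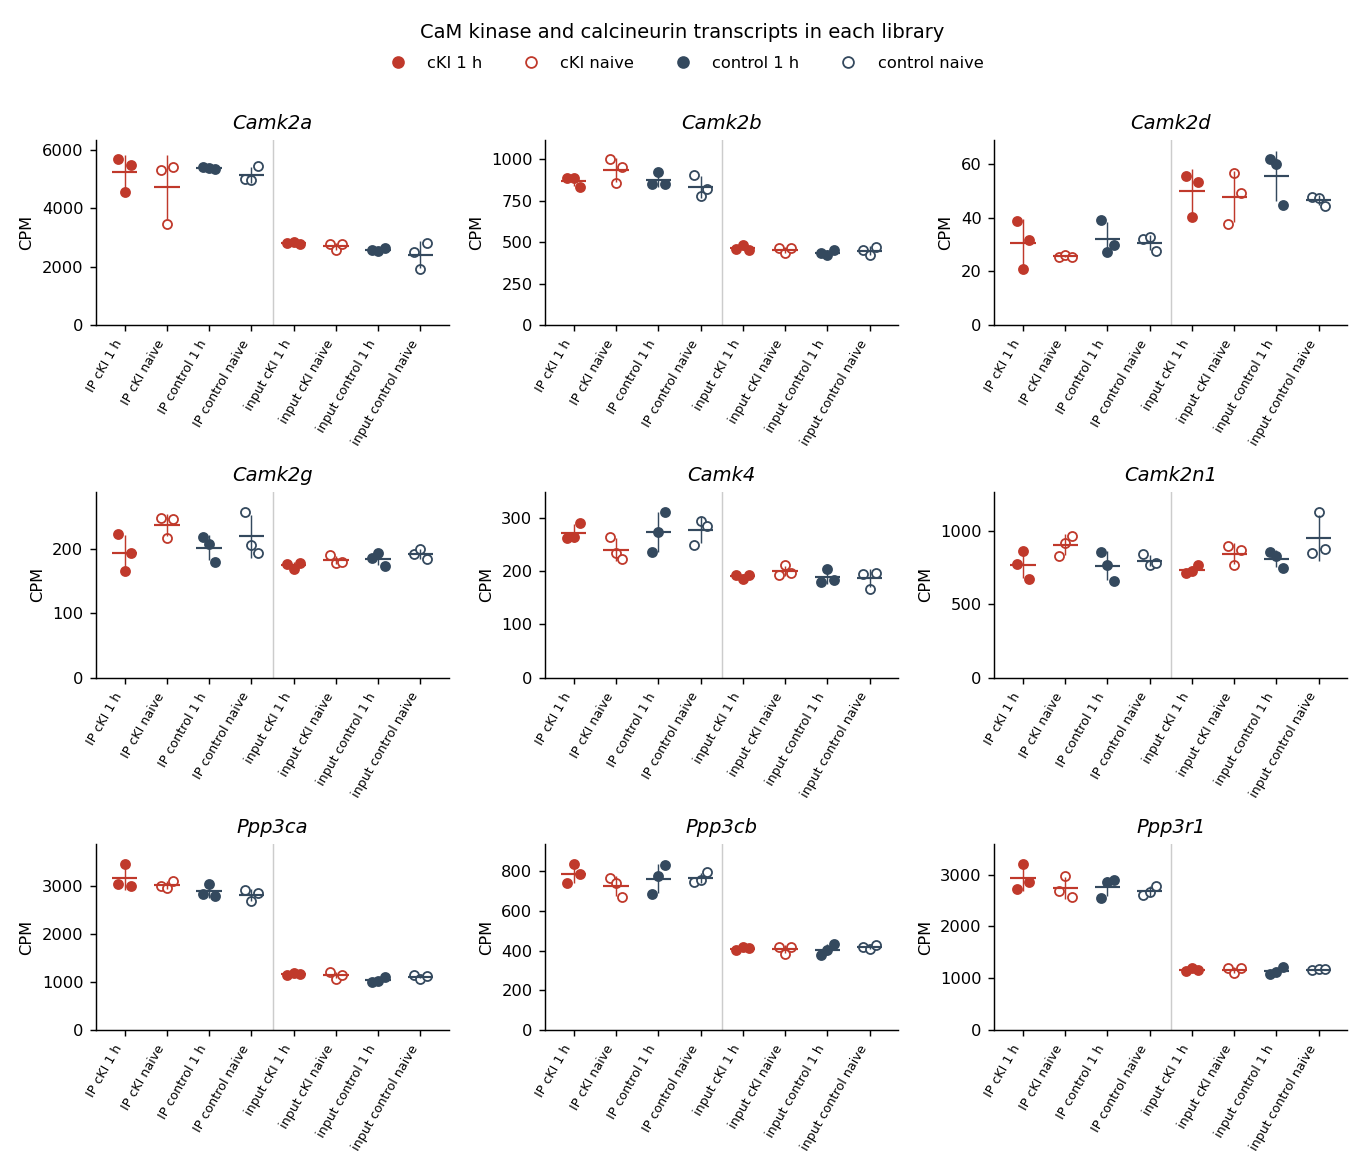
CPM of each member (1 panel each, y axis from 0) in all 24 libraries, with 3 points per group, the group mean as a horizontal bar and ± 1 SD as a vertical line; red is cKI, blue-grey control, filled 1 h and open naive. The 12 IP points lie above the 12 input points for Ppp3ca, Ppp3cb, Ppp3r1, Camk2a, Camk2b and Camk4, and the fractions overlap for Camk2d, Camk2g and Camk2n1.

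Ppp3ca, the major calcineurin A subunit of forebrain, ranged over 2689.7 to 3467 CPM (median 2982) in the 12 IPs and 1002 to 1204 CPM (median 1136) in the 12 inputs. Every IP lay above every input, a 2.67-fold difference (log2 fold change 1.42, SE 0.03, adjusted p = 1.1e-21), and 0.55% of the genes tested had a larger log2 fold change. Ppp3r1, the calcineurin B subunit that the A subunits need for activity, ranged over 2558 to 3207 CPM (median 2755) in IPs and 1072 to 1211 CPM (median 1167) in inputs. The fractions again did not overlap, and the difference was 2.40-fold (log2 fold change 1.27, SE 0.03, adjusted p = 4.9e-20; 0.808% of genes higher). Ppp3cb, the second brain A subunit, ranged over 669.7 to 836 CPM (median 762) in IPs and 376 to 431 CPM (median 414) in inputs. It was separated as fully but by less, 1.86-fold (log2 fold change 0.89, SE 0.03, adjusted p = 4.4e-17; 3.41% of genes higher).

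Camk2a and Camk2b, the 2 main synaptic CaMKII subunits of forebrain neurons, were enriched to about the same degree. Camk2a ranged over 3447 to 5661 CPM (median 5359) in IPs and 1914 to 2839 CPM (median 2697) in inputs (log2 fold change 0.96, SE 0.07, adjusted p = 1.7e-11). The lowest IP value was that of IP cKI naive replicate 2 and the lowest input value that of input control naive replicate 2, and the log2 fold change lay between 0.93 and 1.00 when each of the 24 libraries in turn was left out. Camk2b, whose subunit binds actin, ranged over 778 to 1000.1 CPM (median 872) in IPs and 421 to 481 CPM (median 456) in inputs (log2 fold change 0.96, SE 0.03, adjusted p = 3.9e-18). Neither gene's fractions overlapped, and 2.51% of genes tested lay above Camk2a and 2.57% above Camk2b.

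Camk2g and Camk2d, the CaMKII subunits that are also common outside neurons, went different ways. Camk2g ranged over 165 to 258 CPM (median 213) in IPs and 168 to 200.4 CPM (median 182) in inputs, and was 1.16-fold higher in IPs with overlapping fractions (log2 fold change 0.21, SE 0.05, adjusted p = 4.1e-04; higher in 11 of 12 mice). Camk2d ranged over 21.0 to 39.1 CPM (median 28.5) in IPs and 37.6 to 61.6 CPM (median 48.3) in inputs. It fell to 0.596 of its input level in the IPs (log2 fold change -0.75, SE 0.10, adjusted p = 4.6e-07) and was lower in the IP of all 12 mice, although 2 IP values lay above the lowest input value. With sequencing lane as a covariate the Camk2d call was lost (log2 fold change -0.32, adjusted p = 0.33 by edgeR). Only the input control naive and IP cKI 1 h groups spanned lanes. The covariate therefore rests on single mice of these groups, in which lane and mouse cannot be told apart. Within lane 5, the one lane that held both fractions, Camk2d ranged from 25.3 to 38.6 CPM in 4 IPs and from 44.2 to 61.6 CPM in 4 inputs, but these IPs were all cKI and these inputs all control.

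Camk4, the kinase gene expressed mainly in neurons, ranged over 222 to 311 CPM (median 263) in IPs and 167 to 211 CPM (median 193) in inputs. All IPs lay above all inputs, by 1.38-fold (log2 fold change 0.47, SE 0.04, adjusted p = 1.3e-09), and 22% of genes tested had a larger log2 fold change. Camk2n1, the inhibitor, ranged over 658 to 968 CPM (median 806) in IPs and 714 to 1131 CPM (median 839) in inputs. It was higher in the IP of 5 of 12 mice and was not called (log2 fold change -0.04, SE 0.05, adjusted p = 0.45, 95% interval -0.16 to 0.07). It was called lower with DESeq2's size factors (-0.11, DESeq2 Wald test adjusted p = 0.046), and with lane as a covariate the sign turned (0.09, uncalled). For the other 8 members no left-out library, mouse block, filter or scaling ended the call, and the lane covariate ended that of Camk2d.

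**Figure D2:**
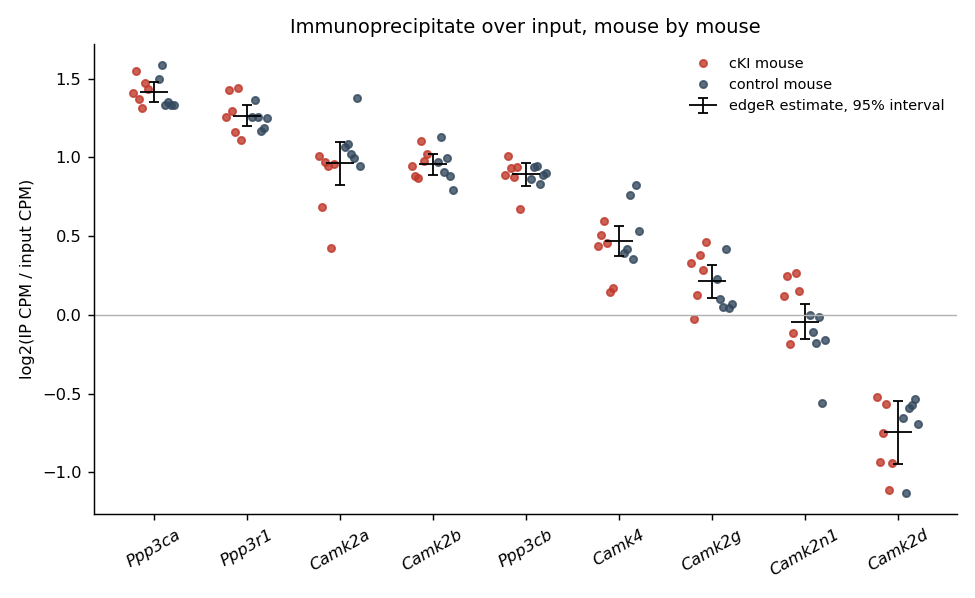
Log2 ratio of IP CPM to input CPM in each of the 12 mice (points, red for cKI left of blue-grey for control) for the 9 members in descending order, with the edgeR log2 fold change and its 95% interval in black. Ppp3ca and Ppp3r1 lie highest, Camk2n1 scatters around 0 and Camk2d lies below 0 in every mouse.

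The order of these differences was steady over mice at some places and not at others. Ppp3ca exceeded Ppp3r1 in 12 of 12 mice (mean difference of the log2 ratios 0.15 ± 0.08, SD), and Ppp3cb exceeded Camk4 in 12 of 12 (0.42 ± 0.18). Ppp3r1 lay above Camk2a, Camk2g above Camk2n1 and Camk2n1 above Camk2d in 11 of 12 mice each, and Camk4 above Camk2g in 9. Camk2a and Camk2b did not differ beyond their spread (0.00 ± 0.25, Camk2a above in 7 of 12), nor did Camk2b and Ppp3cb (0.07 ± 0.15, Camk2b above in 7 of 12).

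Ratios of 2 genes within 1 library do not depend on how libraries are scaled, and they were compared for 4 pairs in 5 comparisons each, 20 exact two-sided tests adjusted together. They contain the unknown difference in transcript length, which is the same in every library. The log2 ratio of Ppp3ca to Ppp3cb was 1.75 to 2.22 in IPs and 1.33 to 1.53 in inputs. It was higher in the IP of all 12 mice, by 0.53 ± 0.11 (SD; exact sign-flip p = 0.000488, the smallest 12 pairs can give; adjusted p = 0.00326). The log2 ratio of Camk2d to Camk2g was lower in the IP of all 12 mice, by 0.96 on average (difference -0.96 ± 0.27; the same exact p), and that of the inhibitor Camk2n1 to its target Camk2a was also lower in all 12 (difference -1.002 ± 0.43; the same exact p). The log2 ratio of Camk2a to Camk2b averaged 2.53 ± 0.21 in IPs and 2.53 ± 0.12 in inputs (exact p = 0.977), so the makeup of the 2 main CaMKII transcripts differed between fractions by 0.00 ± 0.25 on the log2 scale. Without any 1 mouse, the 3 differences that passed the threshold kept their direction and an adjusted p of 0.0065.

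**Figure D3:**
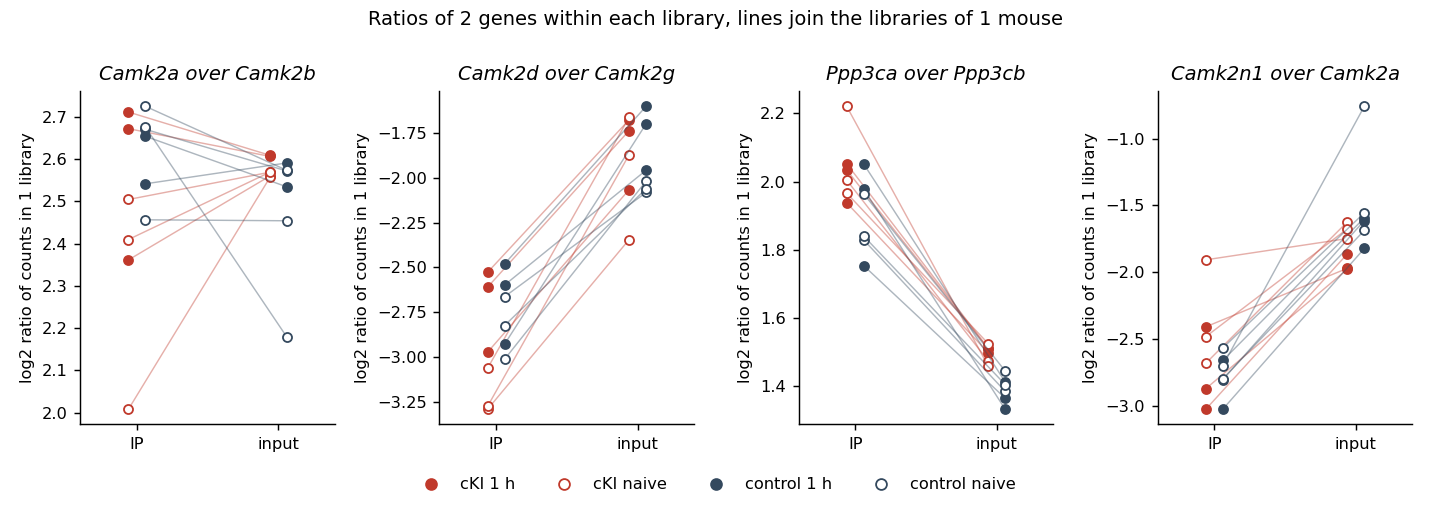
Log2 ratio of the counts of 2 genes within each library (y axis, 1 panel per pair), IPs left and inputs right, with a line joining the 2 libraries of a mouse; red is cKI, blue-grey control, filled 1 h and open naive. The lines run one way for Camk2d over Camk2g, Ppp3ca over Ppp3cb and Camk2n1 over Camk2a, and both ways for Camk2a over Camk2b; input control naive replicate 2 is the highest input point for Camk2n1 over Camk2a.

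The eIF2α genotype was compared within each fraction, 6 cKI mice against 6 controls over the mean of both training states. No member was called by edgeR or by DESeq2's Wald test in the IPs, where edgeR called 1.69% of all genes, or in the inputs, where it called 3.15%. At an unadjusted p under 0.05, edgeR gave 1 member in the IPs (Ppp3ca) and 2 in the inputs (Ppp3ca and Camk2b), and DESeq2 gave 1 and 3. The share of all genes under that unadjusted threshold is not given, so such counts, here and below, cannot be set against a background. The largest difference among the members was 0.17 in size on the log2 scale in both fractions, and the 95% intervals ran from -0.46 to 0.26 in the IPs and from -0.31 to 0.34 in the inputs. The median log2 fold change of the members was 0.03 in the IPs and 0.04 in the inputs, against 0.00 over all genes in each.

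Ppp3ca was the member nearest the threshold. In IPs it had 3040.2, 3467 and 3009 CPM in cKI 1 h mice, 2999.9, 2964 and 3120.5 CPM in cKI naive mice, 2831, 3059.7 and 2797 CPM in control 1 h mice and 2917, 2689.7 and 2852 CPM in control naive mice. In inputs it had 1144, 1185 and 1163 CPM in cKI 1 h mice, 1204, 1069 and 1156 CPM in cKI naive mice, 1002, 1020.1 and 1110.4 CPM in control 1 h mice and 1142, 1069 and 1130.3 CPM in control naive mice. In both fractions the cKI values lay mostly above the control values and the genotypes overlapped. The log2 difference was 0.12 in the IPs (95% interval 0.02 to 0.22, edgeR adjusted p = 0.18) and 0.12 in the inputs (0.04 to 0.20, adjusted p = 0.089). Genotype and lane cannot be told apart for most libraries, since all cKI inputs ran in lane 4 and all control IPs in lane 6. Within lane 4 the inputs differed by 0.06 (6 cKI against 2 control), and within lane 6 the IPs differed by 0.18 (2 cKI against 6 control).

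Ppp3ca was also set against its sister A subunit in the same library. The log2 ratio of Ppp3ca to Ppp3cb was 1.46 to 1.53 in the 6 cKI inputs and 1.33 to 1.44 in the 6 control inputs, with no overlap. The mean difference was 0.11 (1.497 ± 0.025 in cKI and 1.391 ± 0.039 in control inputs, SD; two-sided exact permutation p = 0.00216, the smallest 6 against 6 can give; adjusted p = 0.0108 over the 20 tests). It stayed between 0.09 and 0.12 when any 1 mouse was left out (adjusted p 0.011 to 0.022). Within lane 4 it was 0.08, and the genotypes again did not overlap (6 cKI against 2 control, exact permutation adjusted p = 0.095). Relabelling 6 against 2 allows few arrangements, so this p can hardly pass the threshold. It cannot tell a smaller difference from fewer mice. The summed CPM of 8 CA1 pyramidal cell markers was 665 to 696 in cKI and 683 to 758 in control inputs. That of 12 dentate granule cell markers was 727 to 758 and 607 to 729. Across the 12 inputs, the Pearson r of Ppp3ca was 0.422 with the CA1 and 0.634 with the granule cell markers. For Ppp3cb it was 0.83 and 0.0905. The part of these markers in the ratio difference was not tested. In the IPs the ratio was 1.94 to 2.22 in cKI and 1.75 to 2.05 in control libraries, overlapping, with a difference of 0.13 (exact permutation p = 0.0584, adjusted p = 0.146).

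Camk2a, the driver gene of the Cre, showed no called genotype difference in either fraction. In IPs it had 5661, 4563 and 5469 CPM in cKI 1 h mice, 5314, 3447 and 5403 CPM in cKI naive mice, 5412, 5369.8 and 5348 CPM in control 1 h mice and 4979.8, 4972 and 5429 CPM in control naive mice. All control IPs fell within the range of the cKI IPs, whose lowest values were those of naive replicate 2 and 1 h replicate 2. In inputs it had 2807, 2839 and 2786 CPM in cKI 1 h mice, 2765, 2565 and 2780.1 CPM in cKI naive mice, 2584, 2536 and 2629.7 CPM in control 1 h mice and 2496, 1914 and 2818 CPM in control naive mice. The log2 differences were -0.08 in IPs (95% interval -0.29 to 0.14, edgeR adjusted p = 0.72) and 0.17 in inputs (-0.01 to 0.34, adjusted p = 0.26), both uncalled. In inputs the genotypes overlapped, and without control naive replicate 2 the input difference was 0.09 (adjusted p = 0.13); without cKI naive replicate 2 the IP difference was 0.02 (adjusted p = 0.9), with the sign turned.

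The other members had smaller or wider differences. Camk2b averaged 904 ± 61.7 CPM in cKI and 855 ± 53.6 CPM in control IPs, and 462 ± 15.1 and 444 ± 20.8 CPM in cKI and control inputs (SD, n = 6 each; log2 difference 0.08 in both). Ppp3cb averaged 757 ± 55.4 CPM in cKI and 765 ± 49.7 CPM in control IPs, and Ppp3r1 2837 ± 232 and 2727 ± 137 CPM. Camk2d had the widest interval, -0.46 to 0.13 in the IPs, and with 21.0 to 39.1 CPM in the IPs it was the member with the fewest counts.

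**Figure D4:**
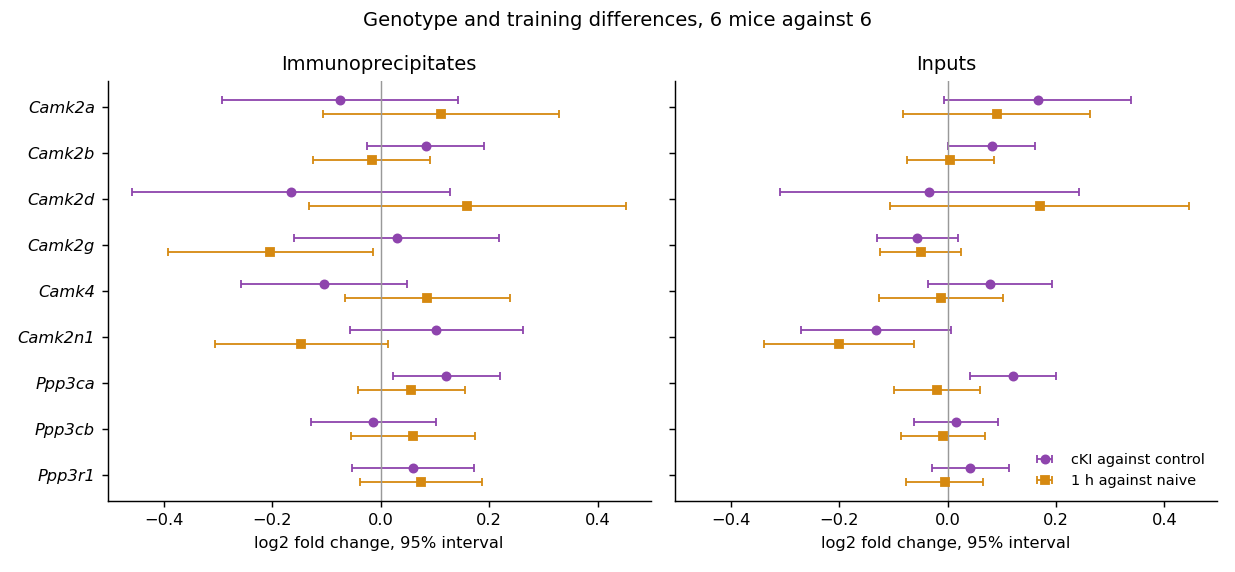
Log2 fold changes of the 9 members with 95% intervals from edgeR (x axis) in IPs (left) and inputs (right); circles are cKI against control and squares 1 h against naive, 6 mice against 6 in each. No member passed an adjusted p of 0.05 in any of these 4 comparisons; the interval of Ppp3ca by genotype lies above 0 in both panels, as does that of Camk2b in the inputs, and the training intervals of Camk2g in the IPs and Camk2n1 in the inputs lie below 0.

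Split by training state, no member was called for genotype in naive IPs (3.7% of genes called by edgeR), 1 h IPs (0.0591%), naive inputs (0.859%) or 1 h inputs (0.267%), nor by DESeq2 in any of them. The unadjusted p was under 0.05 by edgeR, and for as many members by DESeq2, for 1 member in naive IPs (Camk2b), 1 in 1 h IPs (Ppp3ca), 0 in naive inputs and 1 in 1 h inputs (Ppp3ca). The test of the difference between the training states called no member in IPs (0.0131% of genes) or inputs (0.0348%), and 0 members had an unadjusted p under 0.05 there by edgeR or by DESeq2.

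Fear conditioning, 1 h against naive over the mean of both genotypes, gave no called member by either tool in IPs (0.387% of genes called by edgeR) or inputs (0.818%), with 1 member in each at an unadjusted p under 0.05 by edgeR and by DESeq2. In inputs that member was Camk2n1, which had 714, 725 and 766 CPM in cKI 1 h mice and 898, 764 and 871 CPM in cKI naive mice. In control inputs it had 857, 829 and 744 CPM in 1 h mice and 849, 1131 and 875 CPM in naive mice, the last group holding the library that stood apart. The groups overlapped, and the log2 difference was -0.20 (95% interval -0.34 to -0.06, edgeR adjusted p = 0.23). Without control naive replicate 2 the difference was -0.14 (adjusted p = 0.23). In IPs the member was Camk2g, at 198 ± 22.6 CPM in 1 h and 229 ± 26.0 CPM in naive mice (SD, n = 6 each; log2 difference -0.20, 95% interval -0.39 to -0.01, edgeR adjusted p = 0.35). The summed level of 12 granule cell markers ranged from 379 to 1197 CPM in the 1 h IPs and from 419 to 1581 CPM in the naive IPs, and its part in that difference was not tested.

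No member was called by edgeR or DESeq2 for a difference of its IP to input ratio by genotype (0.0229% of genes called by edgeR) or by training (0.00573%). At an unadjusted p under 0.05, 1 member stood out for genotype by each tool and 0 for training. It was Camk2n1, whose log2 IP to input ratio was 0.26 higher in cKI than in control mice (95% interval 0.03 to 0.48, edgeR adjusted p = 0.27). By group the mean log2 ratio of Camk2n1 was 0.06 in cKI 1 h, 0.10 in cKI naive, -0.09 in control 1 h and -0.24 in control naive mice. Control naive replicate 2, whose input stood apart, had the lowest value (-0.56), and the other 11 mice lay between -0.19 and 0.27.

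The IPs covered a wider range than the inputs in the markers of principal cell types, and several members moved with these markers. The summed CPM of 12 dentate granule cell markers ranged from 394 to 1581 in cKI IPs and from 379 to 1189 in control IPs, and from 727 to 758 in cKI inputs and from 607 to 729 in control inputs. All 12 of these markers were counted in every IP. CPM of 8 CA1 pyramidal cell markers summed to 1269 to 2111 in cKI and 1622 to 2243 in control IPs. Across the 12 IPs, log2 CPM of Camk2g had a Pearson r of 0.854 with the granule cell markers and of -0.841 with the CA1 markers. Camk2b also went with the granule cell markers (r = 0.699), while Camk4 (r = -0.763) and Ppp3cb (r = -0.729) went against them. Camk2a (r = -0.0119) and Ppp3ca (r = 0.15) had little relation to them. Other marker sets gave a larger r in size for some members. With the inhibitory neuron markers r was -0.776 for Ppp3ca and -0.777 for Camk2b, and with the CA3 pyramidal cell markers it was 0.718 for Ppp3r1. Across the 12 inputs the r with the granule cell markers was -0.841 for Camk2g, the opposite sign, and 0.796 for Camk2b. There it was 0.277 for Camk4, 0.0905 for Ppp3cb, 0.815 for Camk2a and 0.634 for Ppp3ca. The 12 points of a fraction are 12 mice of 4 groups in 2 lanes, each library gave both of its values, and no test was made.

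**Figure D5:**
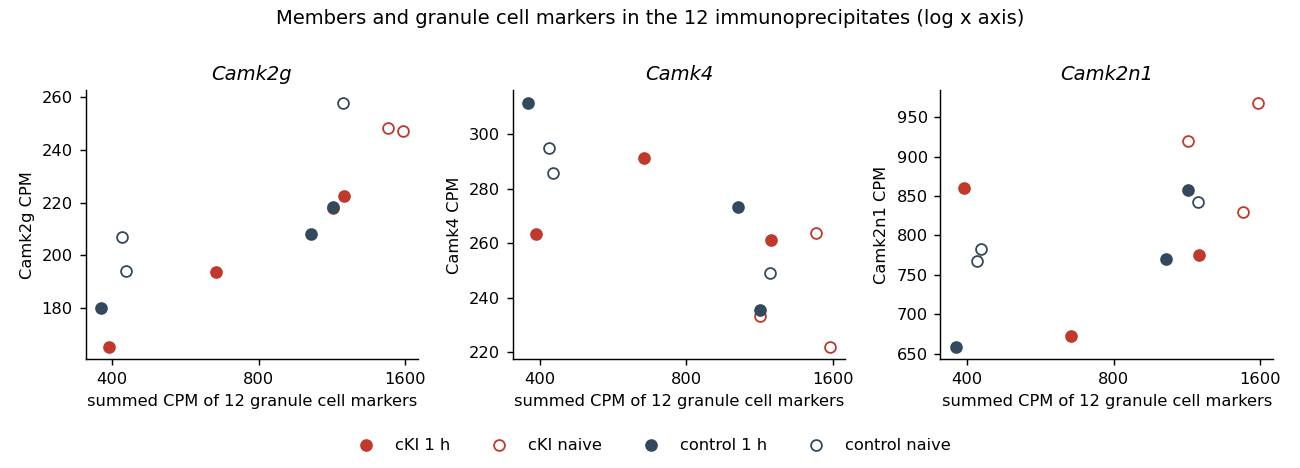
CPM of Camk2g, Camk4 and Camk2n1 (y axes, not starting at 0) against the summed CPM of 12 dentate granule cell markers (x axis, log scale) in the 12 IPs; red is cKI, blue-grey control, filled 1 h and open naive. Camk2g is higher in the IPs with more granule cell marker RNA in both genotypes, and Camk4 is mostly lower there, with a cKI 1 h IP at the low end as an exception.

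Among the members themselves, the closest relations across the 12 IPs were those of Camk4 with Camk2n1 (r = -0.906), Camk2g with Ppp3r1 (-0.807) and Camk4 with Ppp3cb (0.787). Across the 12 inputs they were those of Ppp3cb with Ppp3r1 (0.903), Camk2b with Ppp3ca (0.875) and Ppp3ca with Ppp3r1 (0.851). Camk2a and Camk2b had an r of 0.142 in IPs and of 0.847 in inputs. Of 7499 other genes of at least 4 mean log2 CPM, the genes whose level was most like Camk2a over the 12 IPs were Huwe1 (r = 0.981) and Prdm11 (0.972). Those most like Camk2g were Magi1 (0.99) and Pard3 (0.973), those most like Camk4 Usp46 (0.974) and Frmpd4 (0.973), and those most like Camk2n1 Med6 (0.956) and Zfp61 (0.939). They were Pcdh20 (0.924) and Klhl2 (0.923) for Camk2b, and Galnt13 (0.877) and Zcchc12 (0.866) for Camk2d. For the calcineurin subunits they were Axin1 (0.924) and Sfpq (0.918) for Ppp3ca, Me1 (0.937) and Evc2 (0.928) for Ppp3cb, and Acsl5 (0.955) and Zc3h15 (0.948) for Ppp3r1. The r values are the highest of many and describe these 12 libraries only.

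The other genes of the pathway were set beside the members in 4 lists. Of 7 calmodulin genes and calmodulin-binding store proteins, edgeR called 4 higher and 2 lower in IPs than in inputs. Over all genes tested it called 42.8% higher and 43.1% lower. The calmodulin genes Calm2 and Calm3 were higher, as was Nrgn, whose product neurogranin holds calmodulin at low calcium. Nrgn averaged 3114 ± 333 CPM in IPs and 1235 ± 105 CPM in inputs (SD, n = 12 each; log2 fold change 1.33), Calm2 2381 ± 193 and 962 ± 73.3 CPM (1.31), and Calm3 was 0.94 higher on the log2 scale (all 3 adjusted p at most 2.4e-17 by edgeR). Of 11 other calcineurin subunits and regulators, 8 were higher and 3 lower (list median log2 fold change 0.35, all genes -0.01). Fkbp1a, which encodes the immunophilin FKBP12, and Rcan1, a calcineurin regulator, were higher (1.06 and 0.93), and the related regulator Rcan2 fell to 40.6 ± 12.3 CPM in IPs, against 135 ± 5.87 CPM in inputs (-1.77). Ppp1r1a, which encodes protein phosphatase inhibitor-1, a calcineurin substrate, was 0.84 higher.

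The list of 12 other CaM kinase genes also holds the CaMKII inhibitor gene Camk2n2. Of these 12 genes, 6 were higher and 4 lower in IPs than in inputs (list median log2 fold change 0.42). The shares over all genes tested were 42.8% higher and 43.1% lower. The upstream kinases Camkk1 and Camkk2 were 0.99 and 0.90 higher, Camkv, which encodes a kinase-like protein without known kinase activity, 0.90, and Mylk, the myosin light chain kinase gene of smooth muscle, fell to 5.87 ± 1.04 CPM in IPs, against 16.2 ± 1.47 CPM in inputs (-1.47). Of 20 substrates and effectors, 12 were higher and 7 lower (list median 0.35). The postsynaptic scaffold gene Dlg4 and the NMDA receptor gene Grin1 were 0.98 and 0.97 higher, near Camk2a and Camk2b, and the CREB coactivator gene Crtc1 was 0.71 higher. The calcineurin-regulated transcription factor gene Nfatc1 had 0.411 ± 0.126 CPM in IPs and 5.06 ± 0.488 CPM in inputs (-3.59), so these synaptic genes rose while Nfatc1 fell.

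In the genotype comparison, single genes of these lists passed the threshold. In inputs, where 3.15% of all genes were called, 2 of 7 genes of the calmodulin list were lower and 0 higher in cKI than in control mice, 2 of 12 genes of the other CaM kinase list were higher and 0 lower, and 0 of 11 calcineurin genes and 0 of 20 substrates were called. The list medians in that order were -0.09, -0.01, -0.05 and 0.07 on the log2 scale, against 0.00 over all genes. The 2 lower genes were Calm3 (1493 ± 60.4 CPM in cKI and 1672 ± 101 CPM in control inputs; log2 fold change -0.14, SE 0.03, adjusted p = 0.035) and Pcp4l1, whose product resembles the calmodulin-binding protein PEP-19 (38.0 ± 1.98 CPM in cKI and 45.0 ± 3.49 CPM in control inputs; log2 fold change -0.22, SE 0.05, adjusted p = 0.026). The 2 higher genes were the CaMKIV-activating kinases Camkk1 (245 ± 12.0 CPM in cKI and 228 ± 9.09 CPM in control inputs; log2 fold change 0.13, SE 0.03, adjusted p = 0.04) and Camkk2 (169 ± 4.10 CPM in cKI and 154 ± 8.51 CPM in control inputs; log2 fold change 0.16, SE 0.04, adjusted p = 0.041). In the cKI inputs 8 of 10 oligodendrocyte markers were also called lower (summed CPM 3731 to 4580 in cKI and 4199 to 6009 in control inputs) and 2 of 12 granule cell markers higher, and their part in these 4 differences was not tested. All 4 calls were lost with lane as a covariate (adjusted p 0.11 to 0.24), at log2 fold changes of -0.32 for Pcp4l1, -0.17 for Calm3, 0.13 for Camkk1 and 0.22 for Camkk2. Among the inputs only the control naive group spanned lanes. The covariate therefore rests on its 3 libraries, with the one that stood apart among them, and cannot separate lane from mouse. The call of Camkk1 was also lost without the count filter (adjusted p = 0.072). The call of Pcp4l1 was also lost without cKI naive replicate 2, cKI 1 h replicate 1, cKI 1 h replicate 2 or control 1 h replicate 1 (adjusted p up to 0.076). That of Calm3 was kept only without cKI naive replicate 3 or any 1 of the 3 control naive inputs, that of Camkk1 only without cKI naive replicate 2 or control naive replicate 2, and that of Camkk2 only without any 1 of the 3 control naive inputs (adjusted p up to 0.11, 0.13 and 0.11 without another input).

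In IPs, where 1.69% of all genes were called, 1 of the 11 tested genes of the other CaM kinase list was higher in cKI than in control mice, and 0 of 7 calmodulin, 10 calcineurin and 20 substrate genes tested were called (list medians -0.01, -0.05, -0.02 and -0.09, all genes 0.00). It was Camkk1, at 516 ± 41.6 CPM in cKI and 429 ± 34.1 CPM in control IPs (SD, n = 6 each; log2 fold change 0.27, SE 0.06, adjusted p = 0.042), and it was also called between the naive mice (log2 fold change 0.37, SE 0.08, adjusted p = 0.031). In the naive IPs all 12 granule cell markers had a positive log2 fold change by genotype and 0 were called (list median 1.24; summed CPM 1135 to 1581 in cKI and 419 to 1189 in control). All 8 CA1 markers had a negative one and 1 was called (list median -0.48; summed CPM 1269 to 1684 in cKI and 1639 to 2243 in control), and the part of these markers in the Camkk1 difference was not tested. With lane as a covariate neither call held (adjusted p 0.61 and 0.73 at log2 fold changes of 0.27 and 0.37). Among the IPs only the cKI 1 h group spanned lanes, so there the covariate cannot separate lane from mouse. Of the 12 IPs, the call over both training states was kept without cKI naive replicate 3, cKI 1 h replicate 3, control naive replicate 1 or control 1 h replicate 1, and was lost without any 1 of the other 8 (adjusted p up to 0.13). The naive call was kept without any 1 of the 1 h IPs or without control naive replicate 1, and was lost without any other naive IP (adjusted p up to 0.17). For training, no gene of the 4 lists was called in IPs or inputs.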

How the data were processed

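Ribosome-bound (IP) and input RNA of 12 mice was measured in 24 poly(A)-selected libraries, sequenced as 50-base pairs after a directional kit, per the labels' protocols. The authors deposited whole-number read counts per gene, not normalized. The tools cutadapt, Bowtie and DESeq2 appear in the submitters' processing notes. How reads were counted, on which build and annotation and with which strand setting is not given in the sources used here, so genes that overlap or resemble another cannot be separated from it. Groups, mouse numbers and sequencing lanes were read from the labels. All 24 columns were used, with 28810676 to 43530930 counts each. Intervals are at the 95% level.

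Counts were scaled by TMM and tested with edgeR 4.0.16 (limma 3.58.1, R 4.3.3) by its robust quasi-likelihood test after filterByExpr, in separate fits of the IPs, the inputs and all 24 libraries, with a coefficient for each of the 8 groups of 3. P-values were adjusted by Benjamini-Hochberg over all genes tested, with a threshold of 0.05. Each library is 1 mouse. In figures and levels, CPM uses TMM library sizes. Within-library ratios were compared by two-sided exact sign-flip tests over 12 mice or exact permutation tests over 6 mice against 6, 20 tests adjusted together. Correlations use log2 CPM with a prior count of 2. Alternatives were DESeq2 1.42.0 (size factors and Wald test), no count filter, lane as a covariate, replicate or mouse blocks, and leaving out each library. IP and input of a mouse, paired by the mouse number in the titles, deviated from their group means together in 6 of 12 mice with a correlation over 0.1 (0.0274 to 0.32), and the mouse block changed no member's call. Replicates of a group differed beyond counting noise in all 24 pairs (chi-square per gene 2.22 to 33.8). The fits were also tested on simulated counts.

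The members, gene lists and tests were chosen with earlier results of these data known. Pathway genes are named as those called for genotype or training and, for IP against input, the 4 with the lowest p in each list, of which 1 is not reported here. Genes named beside a count of members at an unadjusted p under 0.05 were chosen after their values were seen.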

Additional observations from a re-analysis of the deposited data

Results flagged for a closer look

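Of 36 sets of 6 libraries (9 members, each genotype within each fraction), 3 held a library farther from the others than Dixon's 95% critical value for a set of that size, and chance gives about 1 in 20. Ppp3ca stood apart as the highest library of its genotype in IP cKI 1 h replicate 2 (3470 CPM). Camk2a stood apart in input cKI naive replicate 2 (2570 CPM) and in input control naive replicate 2 (1910 CPM), in both cases as the lowest library of its genotype.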

How the results depend on the processing

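Genes called are given here as a percent of the genes edgeR tested in the same comparison, and the edgeR values stand in the report. With DESeq2's Wald test they were 5.11% for genotype in IPs over both training states, 8.43% in naive IPs, 0.308% in 1 h IPs, 2.2% for training and 0.558% for the interaction in IPs. In inputs they were 5.49% for genotype, 2.91% in naive mice, 0.946% in 1 h mice, 1.7% for training and 0.192% for the interaction, and for the IP to input ratio 0.235% by genotype and 0.0344% by training. With lane as a covariate they were 0.0197%, 0.00656%, 0.0328%, 0.0131% and 0% in the IPs in the same order. In inputs they were then 0.104% for genotype, 0.0058% in 1 h mice, 0.11% for training and 0.0058% for the interaction, 55.9% for IP against input, and 0% for the ratio by genotype and by training. Without a count filter they were 0.144% in 1 h IPs, 0.807% for training and 0.105% for the interaction in IPs, 0.058% for the interaction in inputs and 0.00573% for the ratio by genotype. With the replicate number as a block they were 3.06% for genotype in IPs, 6.68% in naive IPs and 0.0263% for the interaction, and in inputs 1.69% for genotype, 0.54% in naive mice, 0.0987% in 1 h mice and 0.505% for training. With the mouse as a block the ratio by genotype gave 0.00573%. Samples of different mice share only a number: their deviations correlated at over 0.1 in 7 of 18 IP pairs (-0.189 to 0.404) and 0 of 18 input pairs (-0.114 to 0.083). Leaving out 1 library gave 0.341% to 2.59% for genotype in IPs, 0.144% to 6.12% in naive IPs, 0.0197% to 0.0788% in 1 h IPs, 0.118% to 0.538% for training and 0% to 0.0328% for the interaction. In inputs it gave 0.952% to 4.3% for genotype, 0.302% to 0.83% in naive mice, 0.0174% to 1.2% in 1 h mice, 0.255% to 1.02% for training and 0.0174% to 0.104% for the interaction, and for the ratio 0% to 0.0745% by genotype and 0.00573% to 0.0172% by training.

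Among the uncalled members, signs turned with lane as a covariate for genotype in IPs (Camk2g -0.18, Ppp3cb 0.075), for training in inputs (Camk2a -0.028, Camk2b -0.037) and for IP against input (Camk2n1 0.085). Signs also turned when 1 library was left out, with log2 fold changes by genotype of -0.13 to 0.017 for Camk2a, -0.048 to 0.019 for Ppp3cb and -0.025 to 0.094 for Camk2g in IPs, and of -0.11 to 0.043 for Camk2d and -0.0093 to 0.033 for Ppp3cb in inputs. By training these were -0.049 to 0.014 for Camk2b in IPs, and in inputs -0.031 to 0.016 for Ppp3cb, -0.030 to 0.013 for Ppp3r1, -0.024 to 0.029 for Camk2b and -0.056 to 0.014 for Camk4. The genotype difference of the input Ppp3ca to Ppp3cb log2 ratio was 0.11 (exact sign-flip adjusted p = 0.12) with the replicate number as a block and 0.082 within lane 4. Flipping signs over 6 pairs allows few arrangements, so this sign-flip p can hardly pass the threshold. The replicate block ended the 4 input genotype calls of pathway genes (adjusted p = 0.054 for Pcp4l1, 0.074 for Calm3, 0.084 for Camkk1 and 0.08 for Camkk2 by edgeR) at nearly the same fold changes. The uncalled training differences of the ratios turned within lanes: Camk2a to Camk2b to -0.031 in lane 6 IPs and -0.0076 in lane 5 inputs, Ppp3ca to Ppp3cb to 0.077 in lane 6 IPs and 0.049 in lane 4 inputs, and Camk2n1 to Camk2a to 0.011 in lane 5 inputs. Leaving out 1 mouse gave -0.044 to 0.051 for Camk2a to Camk2b between IP and input, -0.036 to 0.10 for Camk2d to Camk2g by genotype in inputs, and for Ppp3ca to Ppp3cb by training -0.031 to 0.047 in IPs and -0.025 to 0.011 in inputs. No alternative made a member pass the threshold for genotype, training or their interaction. The cause of these changes was not tested. The lane covariate rests on the input control naive and IP cKI 1 h groups, the only ones that spanned lanes, so it cannot separate lane from mouse. Lane and genotype cannot be told apart for most libraries, and 3 mice a group limit all comparisons. Camk2d has the widest intervals. It has the fewest counts of the members and also their largest spread of log2 CPM (SD 0.26 over the 12 IPs and 0.23 over the 12 inputs).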
